A study of Mus musculus with 6 samples.

Results

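The 10 genes described here encode the 3 TGF-β ligands (Tgfb1, Tgfb2 and Tgfb3), their 3 receptors (Tgfbr1, Tgfbr2 and Tgfbr3) and the 4 latent TGF-β binding proteins (Ltbp1, Ltbp2, Ltbp3 and Ltbp4). They were taken by symbol from the 31053 genes counted, and each of the 10 symbols matched 1 row. In aged mice Tgfb2 was higher in Dpp4+ and Cd142+ fibroblasts, Tgfb1 was higher in Icam1+ preadipocytes, and Tgfbr1 was higher in all 3 of these fibroblast populations. For Tgfbr1, only the difference in Icam1+ preadipocytes passed the test under every alternative way of processing that was run. Those in Dpp4+ and Cd142+ fibroblasts no longer passed when cells were set to equal sequencing depth. Tgfbr2 was lower in aged Icam1+ preadipocytes, and Ltbp3 and Tgfb3 were lower in aged Dpp4+ fibroblasts. The Tgfb3 difference no longer passed the test in 6 of 17 alternatives. Of the 15 genes tested that TGF-β is known to induce, 9 were lower in aged Dpp4+ fibroblasts, Col1a1, Col3a1 and Postn among them. Of all genes tested there, 7.41% were lower. In aged Icam1+ preadipocytes such genes moved both ways and more were lower than higher. Tgfbi and Ctgf were among the higher and Postn and Fn1 among the lower. Of all genes tested there, 8% were higher and 6.79% lower.

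The study asked how age alters cold-induced beige fat in inguinal white adipose tissue (iWAT), the subcutaneous depot of the mouse groin. Stromal vascular cells, which are the cells left when the fat-filled adipocytes float away, were depleted of CD45+ immune cells, sorted as live cells and sequenced with a 3′ tag method that counts captured transcripts by unique molecular identifiers (UMIs). All mice were C57BL/6 males kept at thermoneutrality (TN, 30 °C) for 3 weeks and then treated for 2 weeks. Young mice were 9 weeks old and aged mice 57 weeks old, and at each age 1 library came from mice that stayed at 30 °C (TN), 1 from mice moved to 6 °C for the last 3 days (3D cold) and 1 from mice held at 6 °C for 14 days (14D cold). The labels name no transgene or mutation, and the study describes the mice of these groups as C57BL/6. The study lists 2 suppliers with different C57BL/6 substrains and gives no number of mice per library, so age and supplier cannot be told apart here. With 1 library per age and temperature group, the p-values below measure the spread of the libraries about their age and temperature terms, and cells were not counted as replicates.

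TGF-β is made as an inactive complex in which each ligand stays wrapped in its own propeptide, and a latent TGF-β binding protein ties that complex to the extracellular matrix until integrins or proteases release it. Free ligand binds the type II receptor Tgfbr2, which recruits and phosphorylates the type I receptor Tgfbr1, and Smad2 and Smad3 then carry the signal to the nucleus. In adipose tissue the pathway is known for holding back the conversion of precursor cells to adipocytes and for driving collagen deposition.

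After filtering, 57326 of 68103 barcodes were kept and grouped into 15 clusters without use of the 10 genes. Clusters were named from marker lists as Dpp4+ fibroblast-like (14860 cells, clusters 1, 6 and 14), Icam1+ preadipocyte-like (18655 cells), Cd142+ fibroblast-like (4216 cells), endothelial-like (4011 cells, clusters 5 and 8), smooth muscle and pericyte-like (SMC/pericytes, 1381 cells, clusters 7 and 10), Schwann-like (428 cells) and immune-like (408 cells). The names are used below without the suffix. Libraries held 52068837 to 88508349 UMIs, and every aged library held fewer than every young one. Median UMIs per kept cell did not overlap either. They were 9904, 8312 and 7652 in young and 6726, 6912 and 2741.5 in aged libraries at TN, 3D and 14D. Depth went with age, so the main fits cannot tell them apart. Repeats with cells set to equal depth are given below for the members called and the shares. The aged 14D cold library stood furthest apart, with a median of 2741.5 UMIs per kept cell against 6726 to 9904 in the other 5. In that library 35.96% of kept cells fell in an unnamed cluster of low UMI counts led by Myh11 and Acta2, against 1.2% to 3.4% elsewhere, so values without it are given beside the members called for age and the pathway lists. Pairs of libraries shared 30 to 44 barcodes. Fibroblast markers (8 of 8 detected) were also counted in other classes and summed to 8431 to 19022 CPM (UMIs per 1000000) in immune cells and 2165 to 4769 in endothelial cells, against 34569 to 47966 in Dpp4+ fibroblasts. The Schwann class carried 49261 to 66890 CPM of these markers, as much as fibroblasts, and a gate on markers per cell kept 149 of its 428 cells, so its values are given only in passing. CPM is a share of a class's RNA, so less of a transcript and more RNA of other genes cannot be told apart.

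Tgfb1 (ENSMUSG00000002603, chromosome 7, 25687002 to 25705077 in GRCm38), the ligand best known from platelets, leukocytes and endothelium, was highest in endothelial cells at 239 ± 16 CPM (mean ± SD, n = 6 libraries) and in immune cells at 199 ± 28 CPM. The ranges of these classes, 224 to 270.3 and 161 to 249 CPM, overlapped, and both lay above SMC/pericytes (57.8 to 126 CPM), which in turn lay above Icam1+ preadipocytes (28.6 to 54.8 CPM). Dpp4+ fibroblasts had the lowest level at 17.0 ± 2.2 CPM. Tgfb2 (ENSMUSG00000039239, chromosome 1, 186622792 to 186705989) had a different order: it was highest in Dpp4+ fibroblasts at 138 ± 28 CPM, with every library (108 to 183 CPM) above every Cd142+ fibroblast library (51.9 to 101 CPM). SMC/pericytes followed at 38.8 to 64.1 CPM, a range that overlapped Cd142+ fibroblasts, and Icam1+ preadipocytes (13.2 to 27.8 CPM) and endothelial cells (13.3 to 22.5 CPM) were not apart from each other. Tgfb3 (ENSMUSG00000021253, chromosome 12, 86056745 to 86079041) was low everywhere, from 45.5 ± 13 CPM in SMC/pericytes to 3.43 ± 1.4 CPM in endothelial cells. In SMC/pericytes the Acta2 and Myh11 cluster carried 69.2 CPM of Tgfb3 and the Rgs5 cluster 24.5 CPM, as means over 6 libraries.

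**Figure D1:**
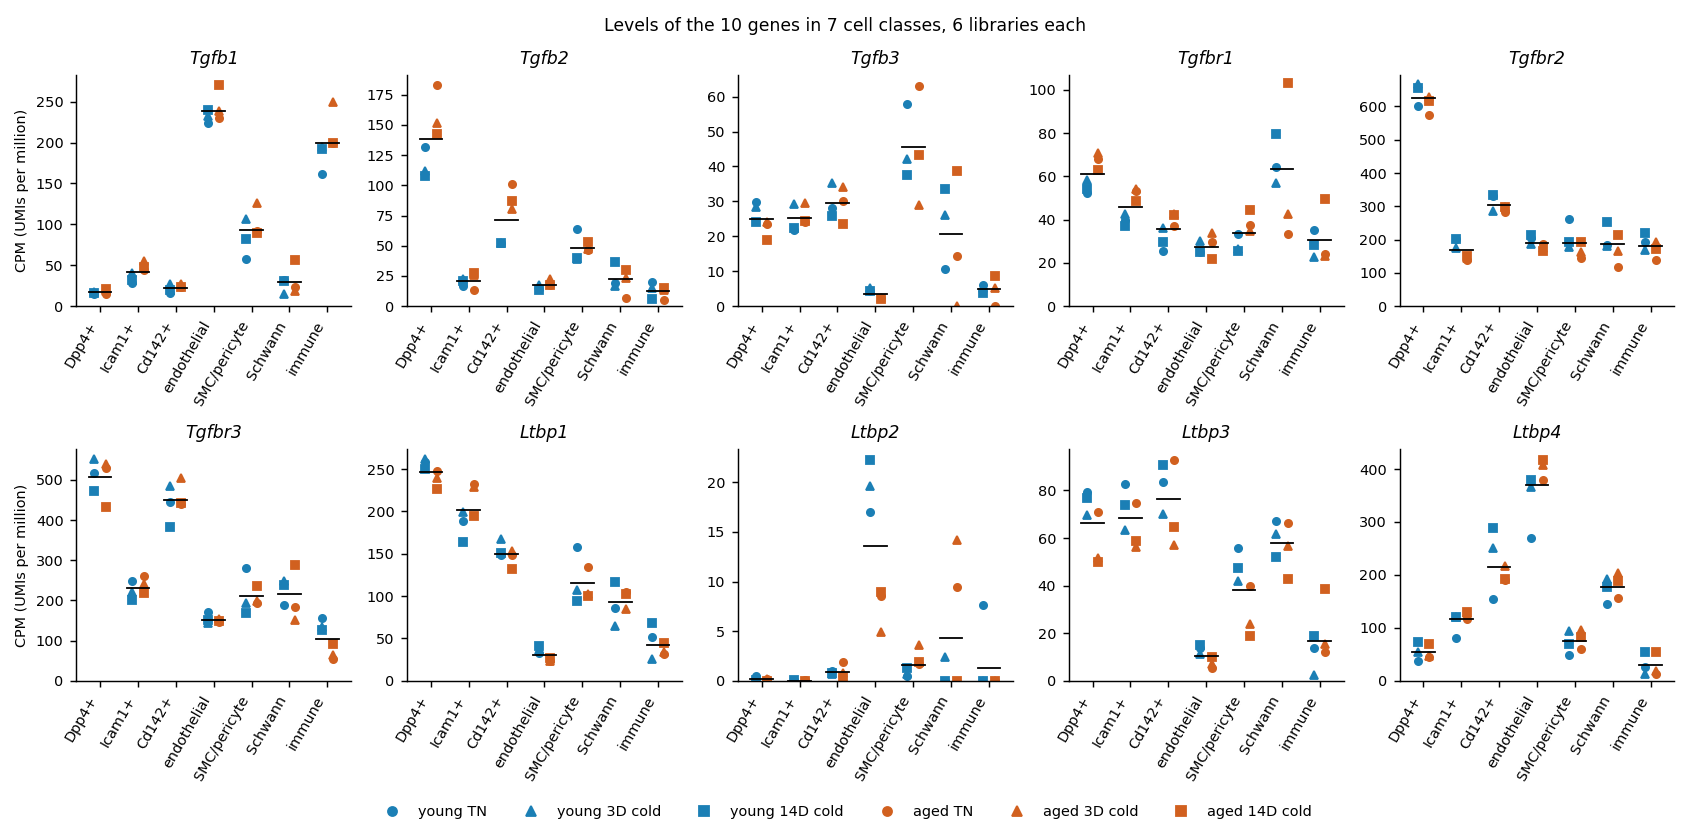
Each panel plots 1 gene: CPM on a linear axis from 0 against the 7 cell classes, with 1 point per library (blue young, orange aged; circle TN, triangle 3D cold, square 14D cold) and a black line at the mean of 6 libraries. Tgfb1 and Ltbp4 peak in endothelial cells, whereas Tgfb2, Tgfbr2, Tgfbr3 and Ltbp1 peak in Dpp4+ fibroblasts.

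Of the receptors, Tgfbr2 and Tgfbr3 were most abundant in Dpp4+ and Cd142+ fibroblasts, and Icam1+ preadipocytes had the lowest mean of Tgfbr2. Tgfbr2 (ENSMUSG00000032440, chromosome 9, 116084293 to 116175360), the ligand-binding kinase, measured 625 ± 34 CPM in Dpp4+ fibroblasts (575 to 669 CPM) and 305 ± 23 CPM in Cd142+ fibroblasts (282 to 333 CPM), 2 ranges that did not overlap each other or any other class. The remaining 5 classes lay between 169 and 189 CPM on average with overlapping ranges. Tgfbr3 (ENSMUSG00000029287, chromosome 5, 107106570 to 107289629), the co-receptor betaglycan that presents Tgfb2 to the kinases, measured 507 ± 46 CPM in Dpp4+ and 450 ± 42 CPM in Cd142+ fibroblasts, which overlapped, and both were apart from Icam1+ preadipocytes at 231 ± 22 CPM. Tgfbr1 (ENSMUSG00000007613, chromosome 4, 47353222 to 47414931), the signalling kinase, had a flat profile, with means from 27.5 CPM in endothelial cells to 63.3 CPM in the Schwann class and overlapping neighbours throughout.

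Among the latency proteins, Ltbp1 (ENSMUSG00000001870, chromosome 17, 75005568 to 75392512) was highest in Dpp4+ fibroblasts at 247 ± 13 CPM, followed by Icam1+ preadipocytes at 202 ± 26 CPM, whose range overlapped. Ltbp4 (ENSMUSG00000040488, chromosome 7, 27305136 to 27337692), which also takes part in elastic fibre assembly, was highest in endothelial cells at 370 ± 53 CPM and lowest among the fibroblasts in Dpp4+ cells at 54.4 ± 14 CPM. Ltbp3 (ENSMUSG00000024940, chromosome 19, 5740904 to 5758532) lay between 66.4 and 76.4 CPM in the 3 fibroblast populations, which did not differ beyond their ranges, and at 10.4 ± 3.7 CPM in endothelial cells. Ltbp2 (ENSMUSG00000002020, chromosome 12, 84783212 to 84876532), a matrix protein that unlike its relatives does not bind latent TGF-β, was highest in endothelial cells at 13.55 ± 7.0 CPM and had means of 0.0232 to 4.35 CPM in the other 6 classes. Within them it sat in cluster 8, whose leading genes include Col13a1, Lrg1 and Plvap, at a mean of 44.2 CPM, and measured 0.0999 CPM in cluster 5, led by Cldn5 and Gpihbp1. With each cell thinned to 2000 UMIs, 35 of 3702 endothelial cells (0.945%, exact binomial 95% interval 0.659% to 1.31%) and 0 of 18558 Icam1+ preadipocytes held an Ltbp2 UMI, a count of 0 that allows a share of up to 0.0162% of cells with a UMI at that depth, pooled over libraries, at median depths of 3417 and 8239 UMIs before thinning. Without thinning, Icam1+ preadipocytes held 0 to 2 Ltbp2 UMIs per library. These intervals cover counting error only.

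The 3 ligands therefore made up different mixtures in different cells. The kit counts 1 tag per captured transcript and is not scaled by gene length, so shares of UMIs are shares of captured 3′ ends. Tgfb2 made up 76.3% of ligand UMIs in Dpp4+ fibroblasts (mean of 6 libraries), and Tgfb1 made up 92.0% in both endothelial and immune cells. Among latency proteins Ltbp1 held 67.2% of UMIs in Dpp4+ fibroblasts and Ltbp4 86.9% in endothelial cells. The Tgfb2 share was 72.9% ± 1.9 in young and 79.6% ± 2.5 in aged Dpp4+ fibroblasts and 51.2% ± 4.8 and 62.6% ± 4.9 in Cd142+ fibroblasts (SD, n = 3 libraries per age), and the Tgfb3 share was 17.0% ± 0.9 and 11.2% ± 1.1 in the first and 28.8% ± 2.3 and 20.5% ± 3.4 in the second. In Icam1+ preadipocytes the Tgfb1 share was 42.9% ± 1.2 in young and 50.8% ± 3.2 in aged libraries. In endothelial cells the Ltbp4 share was 82.8% ± 1.8 and 91.1% ± 0.9, over a mix of clusters that differed with age: cluster 8 made up 23.3% to 26.4% of young and 9.19% to 20.9% of aged endothelial cells, and Ltbp4 was 412 ± 87 and 426 ± 19 CPM in cluster 5 alone and 239 ± 29 and 339 ± 68 CPM in cluster 8 alone. In each of these 6 cases the young and aged libraries did not overlap, which gives the smallest p that 3 against 3 libraries allow in an exact two-sided permutation test, 0.1, and an adjusted p of 0.35 over the 49 shares compared. Shares did not overlap in 14 of the 49, and in 4 when cells were thinned to 2000 UMIs. Without any age difference each share would fail to overlap with a probability of 0.1. Shares of 1 group in a class add up to a fixed total, so they are not separate results.

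**Figure D2:**
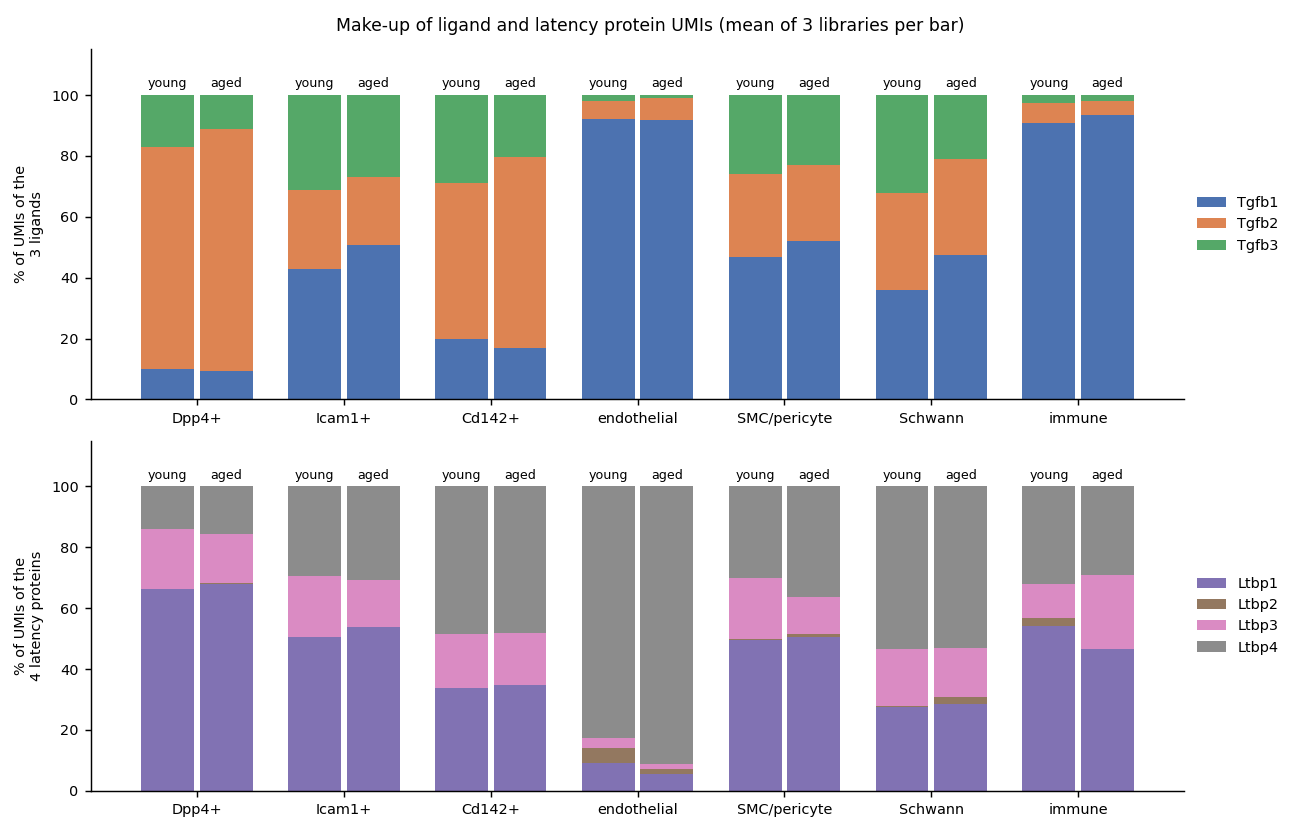
Stacked bars show the percent of ligand UMIs (top) and latency protein UMIs (bottom) held by each gene in 7 classes, as means of the 3 young and the 3 aged libraries. Tgfb2 fills most of the ligand bar in Dpp4+ fibroblasts and Tgfb1 nearly all of it in endothelial and immune cells.

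Age was compared first. In Dpp4+ fibroblasts 4 of the 9 members tested differed with age by edgeR's quasi-likelihood test at an adjusted p under 0.05, where 14.6% of all genes tested did. Icam1+ preadipocytes had 4 of 9 (background 14.8%), Cd142+ fibroblasts 2 of 9 (12.6%) and endothelial cells 1 of 10 (2.4%). SMC/pericytes (0.198%), Schwann cells (2.46%) and immune cells (0.0174%) had 0, with 3, 0 and 1 members at an unadjusted p under 0.05, where 11%, 12.2% and 6.92% of all genes were, and 0 by DESeq2 in each. The median log2 fold change of the members lay between -0.20 and 0.12 in the 7 classes, so the family did not move in 1 direction. The 7 calls in Dpp4+ and Icam1+ cells other than that of Tgfbr1 in Icam1+ preadipocytes, and that of Tgfbr1 in Cd142+ fibroblasts, were lost when the temperature term was left out of the fit.

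Tgfb2 differed with age in both populations where it was most abundant. Its values in Dpp4+ fibroblasts were 132, 112 and 108 CPM in the young TN, 3D and 14D libraries and 183, 151 and 142 CPM in the aged libraries. Every aged library was above every young one, and at both ages the TN library was the highest. The log2 fold change was 0.44 (SE 0.06, edgeR adjusted p = 0.000174), which is 1.36-fold, and 0.44 without the aged 14D cold library. In Cd142+ fibroblasts the values were 52.0, 51.9 and 52.7 CPM in young and 101, 80.6 and 87.3 CPM in aged libraries, again without overlap. There the log2 fold change was 0.79 (SE 0.09, edgeR adjusted p = 3.36e-05), or 1.73-fold, it was 0.81 without the aged 14D cold library, and it passed the threshold under every alternative run. Icam1+ preadipocytes, at 17.1, 22.4 and 21.2 CPM in young and 13.2, 25.4 and 27.8 CPM in aged libraries, did not pass (log2 fold change 0.09, SE 0.13, edgeR adjusted p = 0.713). The difference of the age effect between Cd142+ and Dpp4+ fibroblasts, 0.34 on the log2 scale (SE 0.10), had an edgeR adjusted p of 0.175, and that between Cd142+ fibroblasts and Icam1+ preadipocytes, 0.72 (SE 0.26), one of 0.203.

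Tgfb1 differed with age in Icam1+ preadipocytes, where the young libraries held 28.6, 40.9 and 31.6 CPM and the aged ones 44.4, 54.8 and 48.3 CPM at TN, 3D and 14D. Groups did not overlap, and at both ages the 3D library was the highest. The log2 fold change was 0.57 (SE 0.07, edgeR adjusted p = 0.00111) and 0.54 without the aged 14D cold library. Macrophage markers (10 of 10 detected) summed there to 7.97 to 16.7 CPM in young and 16.8 to 24.8 CPM in aged libraries, and platelet markers (6 of 6 detected) to 20.6 to 26.8 and 11.9 to 15.1 CPM, and their part in the Tgfb1 value was not tested. In the immune class the macrophage sum was 7344 to 21736 CPM beside a Tgfb1 level of 161 to 249 CPM. In the classes with most Tgfb1 no difference passed the test: endothelial cells gave a log2 fold change of 0.07 (SE 0.08) and SMC/pericytes of 0.36 (SE 0.14), with edgeR adjusted p of 0.73 and 0.387. Immune cells held 183 ± 19 CPM of Tgfb1 in young and 216 ± 29 CPM in aged libraries and did not pass either. These libraries did not overlap, where 12% of all genes tested in that class had no overlap. Tgfb3 was lower in aged Dpp4+ fibroblasts, at 29.7, 28.4 and 24.1 CPM in young and 23.6, 24.1 and 19.0 CPM in aged libraries, which overlapped. Its log2 fold change of -0.30 (SE 0.07, edgeR adjusted p = 0.014) had an adjusted p of 0.11 without the young TN, 0.0605 without the aged TN and 0.0508 without the aged 14D cold library.

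The promoters of the ligands and the receptor that were higher in aged fibroblasts are shown because they differ in kind. Each line gives the 250 bases before the RefSeq transcription start (GRCm38.p6, 5′ to 3′ on the strand of the gene); capitals mark the GC box GGGCGG, the CCAAT box CCAAT, the TATA box TATAAA and the AP-1 site TGANTCA, searched on both strands, so that a box on the other strand reads CCGCCC or ATTGG here. For Tgfbr1 the RefSeq start that matches its GENCODE start is used, and a second one is not shown. These windows span chr7:25686752-25687001 (+), chr1:186705990-186706239 (-) and chr4:47352972-47353221 (+).
Tgfb1: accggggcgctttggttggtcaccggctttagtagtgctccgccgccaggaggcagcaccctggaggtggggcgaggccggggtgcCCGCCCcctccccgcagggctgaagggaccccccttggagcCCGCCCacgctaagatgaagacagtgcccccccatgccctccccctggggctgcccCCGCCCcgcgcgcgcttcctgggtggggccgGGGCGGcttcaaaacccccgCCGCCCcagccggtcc
Tgfb2: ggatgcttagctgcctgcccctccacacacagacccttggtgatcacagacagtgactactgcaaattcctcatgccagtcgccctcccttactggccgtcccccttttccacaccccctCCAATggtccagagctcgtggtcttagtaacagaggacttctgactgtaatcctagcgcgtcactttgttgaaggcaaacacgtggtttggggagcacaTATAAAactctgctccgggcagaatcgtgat
Tgfbr1: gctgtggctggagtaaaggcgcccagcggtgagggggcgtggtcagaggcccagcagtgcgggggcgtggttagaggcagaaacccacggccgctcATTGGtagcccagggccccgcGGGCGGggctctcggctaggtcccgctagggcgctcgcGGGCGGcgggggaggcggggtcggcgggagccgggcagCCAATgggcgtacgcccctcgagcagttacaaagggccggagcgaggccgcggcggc

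Tgfb1 has 5 GC boxes and no TATA box in this window and a GC content of 75.2%, whereas Tgfb2 has 1 TATA box, 1 CCAAT box and no GC box at a GC content of 53.6%. Tgfbr1 has 2 GC boxes and 2 CCAAT boxes. Of 32851 promoter windows of this length, 32.7% hold a GC box, 33.8% a CCAAT box, 12.4% a TATA box and 6.75% an AP-1 site. A match is a description of the letters and not evidence of a bound factor. The table of promoters held 8 of the 10 members, without Tgfb3 and Tgfbr3.

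Among the receptors, Tgfbr1 was higher with age in each fibroblast population. The Dpp4+ values were 52.1, 58.2 and 54.1 CPM in young and 67.9, 70.6 and 62.9 CPM in aged libraries (log2 fold change 0.30, SE 0.06, edgeR adjusted p = 0.00691). Icam1+ preadipocytes held 39.7, 42.6 and 37.1 CPM in young and 53.1, 54.2 and 48.8 CPM in aged libraries (0.40, SE 0.06, edgeR adjusted p = 0.00326). Cd142+ fibroblasts held 25.4, 36.1 and 29.5 against 37.0, 42.8 and 41.9 CPM (0.43, SE 0.11, edgeR adjusted p = 0.0145). In all 3 populations the lowest aged library was above the highest young one. Of all genes tested, 20.4%, 23.3% and 23.3% had no overlap in either direction, in that order. Without the aged 14D cold library the log2 fold changes were 0.32, 0.39 and 0.38, and all 3 passed. The call in Icam1+ preadipocytes passed under every alternative run. In Dpp4+ fibroblasts the log2 fold change was 0.11 at 2000 UMIs per cell, with an edgeR adjusted p of 0.628, and 0.26 without the young TN library, with an adjusted p of 0.058. In Cd142+ fibroblasts DESeq2 gave an adjusted p of 0.331, and edgeR 0.0593 and 0.0506 without the young TN and the aged TN library, and at 2000 UMIs per cell the log2 fold change was 0.39 with an edgeR adjusted p of 0.304. SMC/pericytes had a log2 fold change of 0.43 that did not pass (SE 0.19, edgeR adjusted p = 0.423).

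Tgfbr2 was lower in aged Icam1+ preadipocytes, at 202, 175 and 203 CPM in young and 138, 144 and 152 CPM in aged libraries, without overlap. The log2 fold change was -0.40 (SE 0.07, edgeR adjusted p = 0.00605) and was -0.40 without the aged 14D cold library. In Dpp4+ and Cd142+ fibroblasts the log2 fold changes were -0.08 and -0.09 and did not pass (edgeR adjusted p = 0.435 and 0.57). The age effect of Tgfbr2 differed between Cd142+ fibroblasts and Icam1+ preadipocytes by 0.31 (SE 0.07, edgeR adjusted p = 0.0464, with 2.23% of genes called and 3 of the members), but that call was lost under most alternatives. Tgfbr3 differed with age in none of the 7 classes past the threshold, with log2 fold changes from -0.10 to 0.12 in 6 of them. In immune cells it was -0.99 (SE 0.29, edgeR adjusted p = 0.536), at 155, 134 and 126 CPM in young and 53.4, 64.9 and 92.3 CPM in aged libraries.

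**Figure D3:**
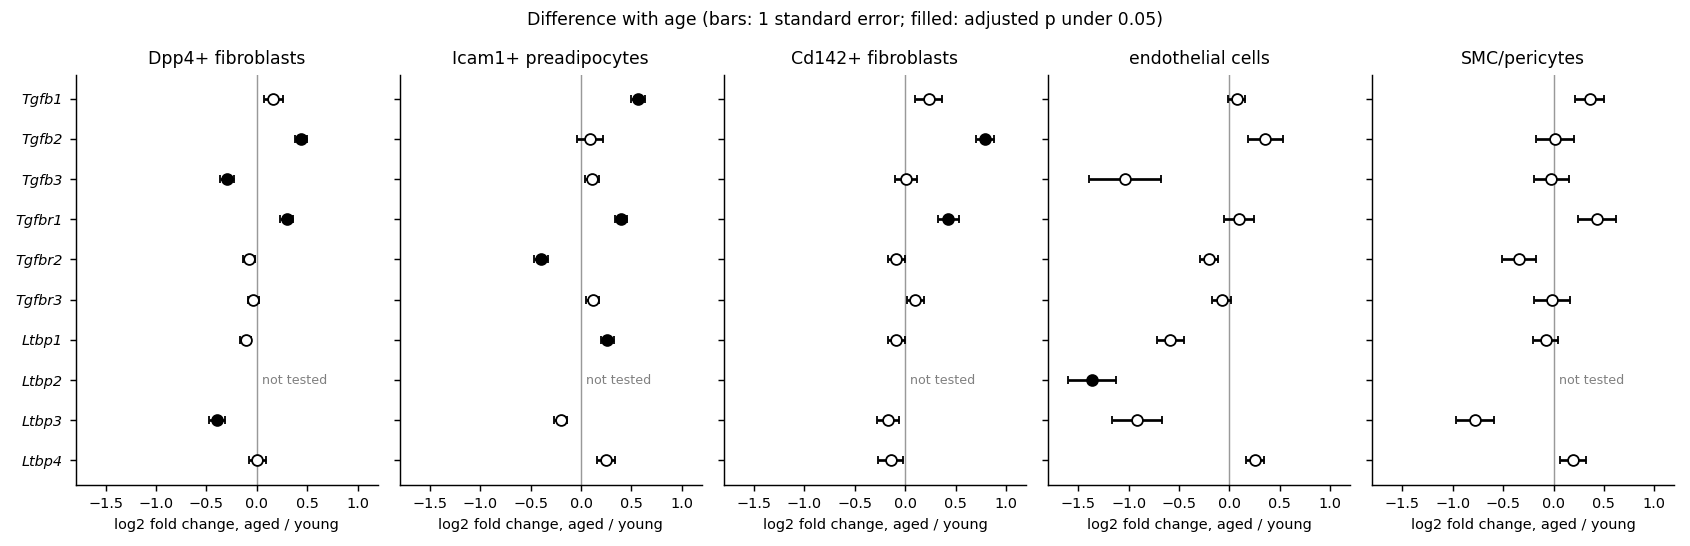
Points give the log2 fold change of aged over young with 1 standard error for the 10 genes in 5 classes; filled points passed an edgeR adjusted p of 0.05, and a gene too low to test is marked so. Tgfbr1 is filled in all 3 fibroblast populations, and Tgfb2 in Dpp4+ and Cd142+ fibroblasts.

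Of the latency proteins, Ltbp3 was lower in aged Dpp4+ fibroblasts, at 79.5, 69.8 and 77.0 CPM in young and 70.8, 51.4 and 50.1 CPM in aged libraries. The aged TN library lay within the young range and both aged cold libraries lay below it. The log2 fold change was -0.40 (SE 0.08, edgeR adjusted p = 0.00431), and -0.31 without the aged 14D cold library. In Icam1+ preadipocytes the same gene just missed the threshold (log2 fold change -0.20, SE 0.06, edgeR adjusted p = 0.0576). Ltbp1 was higher in aged Icam1+ preadipocytes, with 189, 199 and 164 CPM in young and 233, 229 and 195 CPM in aged libraries that overlapped. Its log2 fold change of 0.26 (SE 0.06, edgeR adjusted p = 0.0232) had an edgeR adjusted p of 0.15 without the young 3D, 0.0667 without the young 14D, 0.152 without the aged 3D and 0.0585 without the aged 14D cold library. In Dpp4+ fibroblasts Ltbp1 was 258, 262 and 250.3 CPM in young and 247, 239 and 226 CPM in aged libraries, which did not overlap but missed the threshold (edgeR adjusted p = 0.23).

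In endothelial cells 5 of the 10 members had young and aged libraries that did not overlap, where 19.3% of all genes tested there had none. Tgfb2 was higher and Tgfb3, Ltbp1, Ltbp2 and Ltbp3 were lower in every aged library. Of these Ltbp2 passed the test, at 17.0, 19.7 and 22.2 CPM in young and 8.55, 4.95 and 8.90 CPM in aged libraries from 13 to 62 UMIs each (log2 fold change -1.37, SE 0.24, edgeR adjusted p = 0.0223). Within cluster 8 alone the log2 fold change was -0.75 with an edgeR adjusted p of 0.336. The call was lost by DESeq2 (adjusted p = 0.0792) and by edgeR without the young TN (0.0503), the young 3D (0.0741), the young 14D (0.0895) or the aged 14D cold library (0.104). Ltbp1, at 33.0, 36.1 and 40.8 CPM in young and 23.0, 23.6 and 26.7 CPM in aged libraries, came next with an edgeR adjusted p of 0.0537. Fibroblast markers were lower in the same aged libraries, with sums of 4034 to 4769 CPM in young and 2165 to 3059 CPM in aged endothelial cells, and their part in the values of Ltbp1 and Ltbp3 was not tested. These sums were lower with age in fibroblasts too, at 46488 to 47966 CPM in young and 34569 to 40518 CPM in aged Dpp4+ fibroblasts. They did not overlap in Cd142+ fibroblasts either, but did in Icam1+ preadipocytes. Cluster 8, where all 4 of the lower genes had their higher level, made up 23.3% to 26.4% of young and 9.19% to 20.9% of aged endothelial cells, and the part of this mix was not tested. In cluster 5 alone Ltbp1 was 17.6 ± 2.5 CPM in young and 16.3 ± 7.5 CPM in aged libraries, Ltbp3 4.52 ± 1.9 and 4.62 ± 4.1 CPM, and Tgfb3 0.815 ± 0.32 and 1.59 ± 0.63 CPM. In cluster 8 alone Ltbp1 was 70.2 ± 6.8 and 48.3 ± 9.98 CPM, Ltbp3 28.8 ± 5.3 and 16.3 ± 1.1 CPM, and Tgfb3 11.2 ± 1.3 and 3.72 ± 3.4 CPM, where Ltbp1 and Ltbp3 did not pass (edgeR adjusted p = 0.458 and 0.315) and Tgfb3 was too low to test.

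Temperature was compared with age as a term. In Dpp4+ fibroblasts 2 of the members passed, where 10.7% of all genes did: Ltbp4 and Tgfb2. Ltbp4 was 37.1, 54.2 and 73.3 CPM in the young TN, 3D and 14D libraries and at 45.6, 47.2 and 69.3 CPM in aged ones. Both 14D libraries were above the other 4, with log2 fold changes of 0.30 at 3D and 0.80 at 14D against TN (edgeR adjusted p = 0.00158 for both together), and 0.30 at 3D without the aged 14D cold library. The 3D value was 0.08 without the young TN, 0.12 without the young 3D, 0.46 without the aged 3D and 0.51 without the aged TN library. At 2000 UMIs per cell the 3D value was -0.01 and the edgeR adjusted p 0.127, and with cluster 2 added, described below, it was 0.0597. Tgfb2 fell by 0.26 and 0.32 on the log2 scale (edgeR adjusted p = 0.0186), from the values given above, with edgeR adjusted p of 0.0883 and 0.121 without the young TN and the aged TN library. In Icam1+ preadipocytes Ltbp3 passed, where 5.92% of genes did, with 82.6, 63.5 and 74.0 CPM in young and 74.8, 56.1 and 58.9 CPM in aged libraries. Both TN libraries were above both cold libraries of their own age, by 0.41 at 3D and 0.24 at 14D on the log2 scale (edgeR adjusted p = 0.0296), and DESeq2 gave an adjusted p of 0.0756. Without the young 3D, aged TN or aged 3D library the edgeR adjusted p was 0.254, 0.0797 and 0.221.

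**Figure D4:**
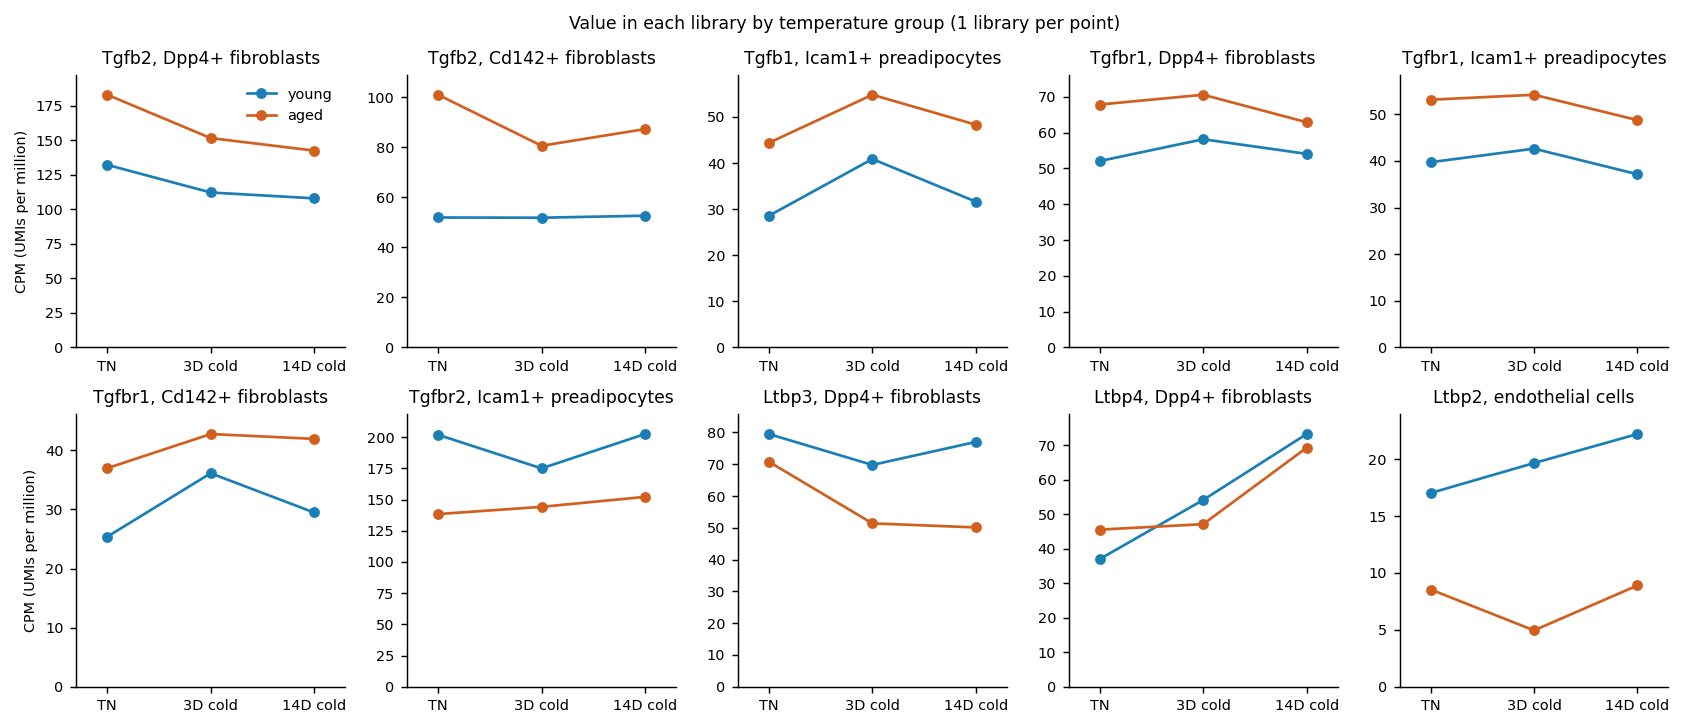
Each panel plots 1 gene in 1 cell class: CPM from 0 against TN, 3D cold and 14D cold, joined within young (blue) and aged (orange) libraries, with 1 library per point. Lines for Tgfb2 and Tgfbr1 run at a higher level in aged than in young libraries at all 3 temperatures, and Ltbp4 in Dpp4+ fibroblasts is highest at 14D in both ages.

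In Cd142+ fibroblasts, endothelial cells and SMC/pericytes, 0 members passed for temperature by edgeR, where 2.96%, 0.509% and 0.301% of genes did, with 5, 1 and 5 members at an unadjusted p under 0.05, where 15.7%, 9.12% and 9.25% of all genes were, and 0 by DESeq2. Leaving out any 1 library gave 1 or 2 members in Cd142+ fibroblasts. Ltbp4 had log2 fold changes above 0 at both cold times in all 5 classes tested, from 0.27 to 0.84 at 3D, and Ltbp3 was below 0 at 3D in the 3 fibroblast populations, by 0.33, 0.41 and 0.48. Ltbp3 was also lower at 3D in SMC/pericytes, with log2 ratios to TN of -0.41 in young and -0.73 in aged libraries. In endothelial cells these ratios were -0.29 and 0.32. Whether the response to cold differed with age was tested as the interaction of age with cold. By edgeR and by DESeq2 0 members passed in each of the 5 classes, where 0% of genes were called in 4 of them and 0.146% in SMC/pericytes. At an unadjusted p under 0.05 there were 0 in Dpp4+ fibroblasts and endothelial cells, 2 in Icam1+ preadipocytes, 1 in Cd142+ fibroblasts and 3 in SMC/pericytes, where 1.39%, 4.65%, 2.8%, 2.4% and 7.42% of all genes were in that order. Tgfb2 in Icam1+ preadipocytes had an interaction of 0.67 on the log2 scale (SE 0.19, edgeR adjusted p = 0.9998): it was 17.1 CPM at TN and 21.2 CPM at 14D in young libraries and 13.2 and 27.8 CPM in aged ones. Ltbp4 in Cd142+ fibroblasts had one of -0.71 (SE 0.22, edgeR adjusted p = 0.9998), from 155 to 288 CPM in young and from 191 to 193 CPM in aged libraries.

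Cluster 2, led by Cxcl13 and Nrcam, holds 7202 cells with 8 of the 10 Dpp4+ markers. It was left unnamed because its top 10 genes held the Cd142+ marker Igfbp3 and none of the Dpp4+ markers. With fixed cell limits a cluster led by Nrcam and Cxcl13 was named Dpp4+, and at resolution 1.0 one led by Cxcl13 and Igfbp3 was unnamed. In cluster 2 too Tgfb2 was higher with age, at 72.9 ± 8.2 CPM in young and 121 ± 3.4 CPM in aged libraries (log2 fold change 0.74, edgeR adjusted p = 0.000321), and Ltbp3 was lower, at 90.1 ± 4.8 and 62.7 ± 9.4 CPM (-0.54, edgeR adjusted p = 0.00518). Tgfbr1 (0.31) and Tgfb1 (0.54) were also higher past the threshold, with 11% of genes called in that cluster. The fifth call there was Ltbp2, at 1.17 ± 0.11 CPM in young and 0.263 ± 0.28 CPM in aged libraries (edgeR adjusted p = 0.0272).

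The surrounding pathway was read from lists. Over all genes tested, 7.17% were higher and 7.41% lower with age in Dpp4+ fibroblasts, 8% and 6.79% in Icam1+ preadipocytes, 6.56% and 6.01% in Cd142+ fibroblasts, 0.659% and 1.74% in endothelial cells, and 0.0834% and 0.115% in SMC/pericytes, against which the counts below can be read. Genes for storage and activation of the latent complex were 1 higher and 5 lower of 14 tested in aged Dpp4+ fibroblasts, 0 and 3 of 13 in Icam1+ preadipocytes, 3 and 4 of 12 in Cd142+ fibroblasts and 1 and 2 of 13 in endothelial cells. Fbn1, the fibrillin to which latency proteins are anchored, was lower in all of these: in Dpp4+ fibroblasts it went from 1913 ± 347 CPM in young to 1339 ± 418 CPM in aged libraries (log2 fold change -0.55, SE 0.08, edgeR adjusted p = 0.00074), and in endothelial cells from 121 ± 32 to 58.1 ± 4.8 CPM. Fbn1 is abundant in fibroblasts, and the fibroblast marker sum in the same endothelial libraries was 4034 to 4769 CPM in young and 2165 to 3059 CPM in aged ones, whose part in that value was not tested. Fbn2, the fibrillin of developing tissue, was at 5.93 ± 3.6 CPM in young and 0.713 ± 0.31 CPM in aged Icam1+ preadipocytes. Mmp2, a matrix protease that can release ligand, was lower in aged Dpp4+ fibroblasts (-0.48, SE 0.06, edgeR adjusted p = 0.000164). Lrrc32, which tethers latent TGF-β to the cell surface, was higher in aged Cd142+ fibroblasts (15.2 ± 2.2 to 24.9 ± 3.2 CPM) and endothelial cells (87.9 ± 14 to 142 ± 27 CPM), as was Thbs1, an activator, in Cd142+ fibroblasts (0.62, SE 0.16, edgeR adjusted p = 0.0155). Without the aged 14D cold library the list had 1 higher and 5 lower in Dpp4+ fibroblasts, 0 and 3 in Icam1+ preadipocytes, 3 and 2 in Cd142+ fibroblasts and 0 and 1 in endothelial cells, where Lrrc32 no longer passed (edgeR adjusted p = 0.21).

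Accessory receptors and extracellular inhibitors moved both ways, with 2 higher and 3 lower of 8 tested in aged Dpp4+ fibroblasts, 3 and 2 of 9 in Icam1+ preadipocytes, 4 and 3 of 9 in Cd142+ fibroblasts and 0 and 2 of 8 in endothelial cells. Cd109, a membrane protein that binds TGF-β and dampens its signalling, was higher in aged cells of all 3 fibroblast populations, from 10.4 ± 2.0 to 43.4 ± 4.3 CPM in Dpp4+ fibroblasts (log2 fold change 2.07, SE 0.11, edgeR adjusted p = 1.1e-07), from 2.91 ± 0.24 to 17.5 ± 2.9 CPM in Icam1+ preadipocytes and from 19.8 ± 1.2 to 64.5 ± 9.6 CPM in Cd142+ fibroblasts. Bambi, a decoy receptor, was higher in aged Icam1+ preadipocytes (0.63, SE 0.08, edgeR adjusted p = 0.0011) and Cd142+ fibroblasts (0.52, SE 0.11, edgeR adjusted p = 0.0058). Aspn, a matrix proteoglycan that binds TGF-β, went the other way in Dpp4+ fibroblasts, from 263 ± 41 to 91.6 ± 20.3 CPM, and Htra1, a secreted protease, was lower in Dpp4+, Icam1+ and endothelial cells. Without the aged 14D cold library this list had 3 higher and 3 lower in Dpp4+ fibroblasts, 3 and 2 in Icam1+ preadipocytes, 2 and 1 in Cd142+ fibroblasts and 0 and 0 in endothelial cells, where Htra1 had an edgeR adjusted p of 0.144. Smad2, Smad3 and Smad4, which carry the signal, did not pass the test for age in any class where they were tested, except that without that library 1 of the 3, Smad3, passed as higher in Cd142+ fibroblasts (0.50, edgeR adjusted p = 0.0499).

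Intracellular brakes on the pathway were 3 higher and 1 lower of 11 tested in aged Dpp4+ fibroblasts, 5 and 0 in Icam1+ preadipocytes and 3 and 0 in Cd142+ fibroblasts. Their median log2 fold changes were 0.04, 0.17 and 0.19, where the median over all genes tested lay within 0.01 of 0. Smad7, the inhibitory Smad, was higher in aged Icam1+ preadipocytes (0.40, SE 0.07, edgeR adjusted p = 0.00762) and Cd142+ fibroblasts (0.30, SE 0.09, edgeR adjusted p = 0.0353), and Smurf2, a ubiquitin ligase that removes receptors, in Dpp4+ (0.54, SE 0.06, edgeR adjusted p = 6.89e-05) and Cd142+ fibroblasts (0.39). Tgif1, a Smad corepressor, was higher in all 3 populations. Pmepa1, a target and brake at once, was lower in aged Dpp4+ fibroblasts (-0.45, SE 0.06, edgeR adjusted p = 0.000127). Without the aged 14D cold library the brakes had 3 higher and 2 lower in Dpp4+ fibroblasts, 3 and 0 in Icam1+ preadipocytes and 2 and 0 in Cd142+ fibroblasts, and Tgif1 in Icam1+ preadipocytes and Smurf2 in Cd142+ fibroblasts no longer passed (edgeR adjusted p = 0.0753 and 0.141).

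Among genes that TGF-β is known to induce, more were lower than higher with age: 0 higher and 9 lower of 15 tested in aged Dpp4+ fibroblasts, 3 and 6 of 15 in Icam1+ preadipocytes, 1 and 8 of 16 in Cd142+ fibroblasts, 0 and 8 of 14 in endothelial cells and 0 and 3 of 15 in SMC/pericytes. Median log2 fold changes were -0.58, -0.16, -0.36, -0.96 and -0.40 in that order. Without the aged 14D cold library the counts were 0 and 9, 3 and 4, 2 and 8, 0 and 4 of 15, and 0 and 0, so that in SMC/pericytes none of the 3 collagen calls held by edgeR (adjusted p of 0.0822 for Col1a1, 0.317 for Col1a2 and 0.406 for Col3a1). Postn, a matrix protein of remodelling tissue, went from 534 ± 204 CPM in young to 50.7 ± 23 CPM in aged Dpp4+ fibroblasts (log2 fold change -3.44, SE 0.10, edgeR adjusted p = 9.95e-10), and Col1a1 and Col3a1, the main fibrillar collagen genes, by -1.75 and -1.76. Ctgf, a classic immediate target, was lower in aged Dpp4+ fibroblasts, at 11.6 ± 0.90 and 3.45 ± 1.0 CPM, but higher in aged Icam1+ preadipocytes (log2 fold change 0.87, edgeR adjusted p = 0.014). Tgfbi, named for its induction by TGF-β, was higher in aged Icam1+ preadipocytes, at 121 ± 39 and 239 ± 17 CPM. Acta2, Tagln and Tgfb1i1 did not pass in any of the 3 fibroblast populations. Col1a1 and Col1a2 are also among the fibroblast markers, whose sum in endothelial cells was 4034 to 4769 CPM in young and 2165 to 3059 CPM in aged libraries, without overlap, and its part there was not tested. In SMC/pericytes (21096 to 33137 and 15532 to 22963 CPM) and Schwann cells (49261 to 66890 and 51595 to 57041 CPM) the sums overlapped between ages. Genes induced by tissue dissociation, such as Fos and Jun, had 2 higher and 1 lower of 10 in aged Dpp4+ fibroblasts and 1 and 0 in each of the other fibroblast populations. Adipocyte markers had 4 higher of 5 tested in aged Dpp4+ fibroblasts and 3 of 7 in Icam1+ preadipocytes, and red blood cell markers had 1 higher of 4 in Dpp4+ fibroblasts and 4 lower of 4 in Cd142+ fibroblasts.

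**Figure D5:**
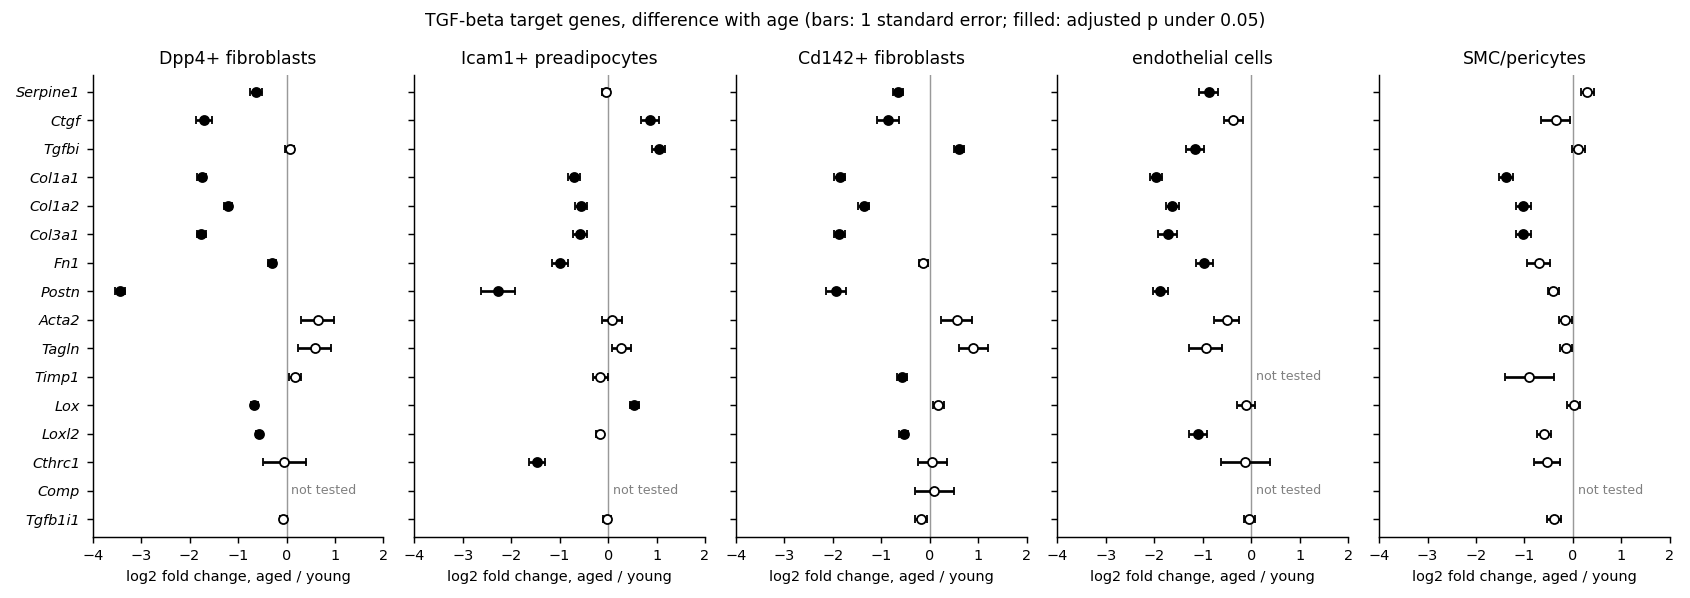
Points give the log2 fold change of aged over young with 1 standard error for the 16 TGF-β target genes found in the counts, in 5 classes; filled points passed an edgeR adjusted p of 0.05. Collagen genes and Postn lie to the left of 0 in each fibroblast panel and in endothelial cells, and Tgfbi lies to the right in Icam1+ preadipocytes.

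The genes whose levels followed each member most closely over the 42 sums of class and library were found by Pearson's r on log2(CPM + 1) among 8469 genes, as a description, since sums of 1 library or 1 class share depth and cell type. Tgfb1 was closest to Cfl1 (r = 0.959) and Arpc3 (0.948), which act on the actin cytoskeleton, and Tgfb2 to Carhsp1 (0.924) and Tshz1 (0.872). Tgfb3 was closest to Atp2a2 (0.901) and Lpp (0.892). For the receptors the leading genes were Rassf8 (0.759) for Tgfbr1, Fyn (0.927) for Tgfbr2 and Slc43a3 (0.930) for Tgfbr3, whose second was Cd34 (0.912). For the latency proteins they were Fstl1 (0.952) for Ltbp1, Klf11 (0.840) for Ltbp2, Ndn (0.932) for Ltbp3 and Fmo1 (0.868) for Ltbp4.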

How the data were processed

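Single-cell 3′ libraries of iWAT stromal vascular cells were sequenced from 6 groups of mice, 1 library per age and temperature. Per the labels and the methods of the study, the authors aligned reads to mm10 and deposited raw UMI counts per gene and barcode from Cell Ranger, without normalization. From these counts, barcodes with more than 200 genes within 3 median absolute deviations of their library on UMIs and genes, and not above that on mitochondrial share, were kept. Cells were clustered with leidenalg 0.10.2 at resolution 0.5 on 15 principal components, with the 10 genes, the markers and the gene lists left out. Doublets were scored against simulated ones and kept, and leaving out high scores was an alternative. UMIs were summed per library and class (at least 20 cells per library) and tested with edgeR 4.0.16 in R 4.3.3 (TMM factors, its filter on low counts, quasi-likelihood test, Benjamini-Hochberg adjustment over all genes tested, threshold 0.05), with age and temperature as terms and 2 residual degrees of freedom, and age effects were compared between classes with the library as a block. DESeq2 1.42.0 was an alternative. Standard errors were derived from each log2 fold change and its F statistic. Scripts were tested on simulated data. The rule for named genes took all 10 members, up to 4 genes per list and class with the largest change with age among those past the threshold, and the 2 genes most like each member. Not every gene it took is described above. Among those left out are Fmod, with log2 fold changes of 1.32 in Icam1+ preadipocytes and -1.23 in Cd142+ fibroblasts, and Cthrc1, with -1.47 in Icam1+ preadipocytes. The text also names Smad2, Smad3, Smad4, Tgfb1i1, Acta2 and Tagln, and Ctgf in Icam1+ preadipocytes, outside that rule, chosen after their values were seen. Members and lists were chosen with earlier results of these data known. Columns of no listed sample numbered 0. Promoters were read from RefSeq on GRCm38.p6, and gene positions from GENCODE on GRCm38.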

Additional observations from a re-analysis of the deposited data

Results flagged for a closer look

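The age effects of 3 genes differed between Cd142+ fibroblasts and Icam1+ preadipocytes in a test of that difference, with the library as a block, and this difference between populations is why they are listed. The difference was 0.31 for Tgfbr2 (edgeR adjusted p = 0.0464), -0.36 for Ltbp1 (edgeR adjusted p = 0.0435) and -0.39 for Ltbp4 (edgeR adjusted p = 0.0461), on the log2 scale and as Cd142+ minus Icam1+. Without the aged 14D cold library the edgeR adjusted p was 0.0753, 0.105 and 0.173. By DESeq2 it was 0.144, 0.131 and 0.114.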

How the results depend on the processing

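Of 343 repeats of 23 counts of members, 277 stayed within 1.5 times the main count and 66 did not. Of 273 repeats of 17 single-gene values, 192 kept the call and 81 lost it. A change of direction was scored only for the values that concern age, and 0 of those turned. It was not scored for temperature, where the 3D value of Ltbp4 in Dpp4+ fibroblasts went from 0.30 to -0.01 at 2000 UMIs per cell. No paired analysis was possible because each group held 1 library, so the replicate numbers pair nothing; the temperature term already sets young against aged libraries within each temperature. For age, counts of members called went from 2 to 1 by DESeq2, at 2000 UMIs per cell and with no temperature term in Cd142+ fibroblasts, from 4 to 2 at 2000 UMIs and 0 with no temperature term in Dpp4+ fibroblasts (2 to 4 without 1 library), and from 4 to 1 with no temperature term in Icam1+ preadipocytes (3 to 4). In endothelial cells 1 became 0 by DESeq2, at 2000 UMIs, by the marker gate and at resolution 0.3, and 3 with no filter (0 to 1), and in SMC/pericytes 0 became 1 with no filter and 2 with fixed cell limits (0 to 1). For temperature, 2 in Dpp4+ fibroblasts became 5 with no filter, 1 at 2000 UMIs, with fixed limits, by the gate and with cluster 2 added, and 0 with no age term (1 to 4). In Icam1+ preadipocytes 1 became 5 with no filter, 3 with fixed limits, and 0 at 2000 UMIs, by the gate and with no age term (0 to 3). In Cd142+ fibroblasts 0 became 2 with no filter (1 to 2), in SMC/pericytes 2 with no filter and 1 without high doublet scores (0 to 3), and in endothelial cells 1 at 2000 UMIs. The difference in age effect between Cd142+ and Icam1+ cells went from 3 members to 0 by DESeq2, at 2000 UMIs, with fixed limits and by the gate, and to 1 without high doublet scores and at resolution 0.3 and 1.0 (0 to 2). Those of Cd142+ and Icam1+ cells from Dpp4+ fibroblasts went from 0 to 1 with no filter, and that of SMC/pericytes to 1 with fixed limits. Shares that did not overlap went from 14 to 4 at 2000 UMIs (15 to 19 without 1 library, where fewer libraries need to be apart). The causes of the other changes were not tested. Not run were fixed limits, the gate and resolution 1.0 in Schwann cells and the doublet alternative in immune cells, for lack of cells, and the interaction without either TN library. Cluster 2, and the pathway lists without the aged 14D cold library, were examined after seeing the data. With 1 library per group, mice and libraries cannot be told apart, and Ltbp2 rests on 62 UMIs or fewer per library and class.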
